A study of Mus musculus with 28 samples.

Results

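The molecular chaperones and the genes of the unfolded protein response (UPR) were followed in single Müller glial cells (MGCs) of degenerating and healthy mouse retinas. The set was chosen by gene symbol and not by expression. It took the Hspa, Hspb, Hspd, Hspe, Hsph and Hsp90 families, the Dnaja, Dnajb and Dnajc families of J proteins, the Pdia family of protein disulfide isomerases, and Calr, Canx, Ddit3, Atf4 and Xbp1. Hspbp1 and Hspg2 share the opening letters of these families but encode no chaperone of them and were left out. This gave 81 of the 18194 genes that the array reads with a probe set for a single gene. By their known place in the cell 42 members were cytosolic or nuclear, 7 mitochondrial and 20 of the endoplasmic reticulum (ER), 3 were transcription factors of the UPR and 9 were not assigned.

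Chaperones bind proteins that are not yet folded or have lost their fold. The Hsp70 proteins (Hspa) take up a client with the help of J proteins (Dnaj) and let go of it with the help of Hsp110 exchange factors (Hspa4, Hspa4l and Hsph1), while Hsp90 proteins mature kinases and receptors. In the ER the Hsp70 BiP (Hspa5), Grp94 (Hsp90b1), the lectins calreticulin (Calr) and calnexin (Canx) and the Pdia enzymes fold secreted and membrane proteins. When unfolded proteins build up there, the sensors IRE1, PERK and ATF6 respond. Spliced Xbp1 and cleaved ATF6 raise these chaperones, PERK slows translation and raises Atf4, and Ddit3 (CHOP), which comes late in the response, is known for its part in cell death. Heat and other stress of the cytosol act instead through heat shock factors on genes such as Hspa1a, Hspa1b, Hspb1 and Dnajb1. MGCs span the whole retina, support its neurons and become reactive when photoreceptors die.

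Each array was hybridized with amplified cDNA of 1 cell that was picked by its shape from a papain-dissociated retina. Rhod-ko mice lack rhodopsin and were on the C57/BL6 strain. Of their cells 5 were taken at the age of 8 weeks and 5 at 25 weeks. In rd1 mice, on the FVB strain, the beta subunit of rod phosphodiesterase (Pde6b) is mutated, and 5 of their cells were arrayed at P13 and 5 arrays come from the age of 5 weeks. Congenic FVB mice, which carry a normal Pde6b gene, gave 3 cells at P13, and C57/BL6 WT mice, older than 25 weeks by the sample labels, gave 5 cells. In the older rd1 mice arrays A5 and A6 correlated at r = 0.9894 and 98.9% of probe sets averaging 500 or more over both arrays lay within 2-fold, whereas the closest of the 377 other pairs reached r = 0.7642. Their mean was used as that of 1 cell (A5/A6), leaving 4 rd1 cells at 5 weeks and 27 cells in all. Adult WT served as the control for both ages of Rhod-ko and for the older rd1 mice, so that these 3 comparisons share the WT cells, and congenic FVB served for rd1 at P13. The text of the study gives a lower age limit for the WT mice than the labels, and which of them holds is not known here. By the labels Rhod-ko at 8 weeks differs from WT also in age, and rd1 at 5 weeks also in age and strain, and these cannot be told apart from the genotype. The paper took as adult WT the 5 cells that its laboratory had published before. All 3 comparisons with WT, that of Rhod-ko at 25 weeks included, thus also set cells of different studies against each other. This too cannot be told apart from the genotype.

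The labels tie no cell to an animal, so each condition stands as 1 sample and no test between conditions was run. The term on stands for a MAS 5.0 signal of 2000 or more in a cell. A gene is called higher or lower where the medians of both conditions over their cells, with signals floored at 1000, lay at least 2-fold apart, which is a log2 difference of 1. Folds are ratios of these floored medians, and none is a bound on the difference between single cells or between means. The brackets after a fold give the log2 difference of the medians, that between the group means of the floored log2 signals, those under settings that took the call under 2-fold, and those without a cell that moved it by more than 1.5-fold but left the call. The few cells limit every share. A gene on in 5 of 5 cells has an exact 95% binomial interval of 47.8 to 100% for the share of such cells, 0 of 5 allows up to 52.2%, 3 of 3 runs from 29.2% upward and 0 of 4 allows up to 60.2%. These intervals cover counting error only. Values per cell are given in the order 2, 1, 3, 7 and 8 for Rhod-ko at 8 weeks, A1 to A5 for Rhod-ko at 25 weeks, A1, B1, A8 and A5/A6 for rd1 at 5 weeks, B4, A4, A1, B3 and B1 for rd1 at P13, A3, A4 and A5 for congenic FVB, and MG1, MG16, MG22, MG15 and MG3 for WT.

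Not every picked cell carried MGC markers alone. Of 21 MGC markers 14 to 20 were on in each cell of Rhod-ko, rd1 at 5 weeks and WT, and 15 to 17 in rd1 P13 cells B4, A4 and B3. The 3 congenic cells had only 5 to 9 of them on and 10 to 12 of 14 markers of endothelium and pericytes, and at P13 the rd1 cells A1 and B1 had 10 and 8 MGC markers and 12 and 10 vascular markers on. The other 22 cells had 1 to 5 vascular markers on. The endothelial tight junction gene Cldn5 read 23455 or more in those 5 cells, 3095 in cell 8 of Rhod-ko at 8 weeks, 2982 in rd1 P13 cell A4 and no more than 996 in the others. Rhod-ko cell 7 at 8 weeks had 6 of 13 microglial markers on, and Rhod-ko cells 7 and 8 of that age and all cells at P13 had 5 to 9 of 12 rod markers on. The ratio of the 3′ to the 5′ Gapdh control was 3.95 to 18.2 in Rhod-ko cells at 8 weeks, against 0.554 to 4.06 in WT cells, and 1.17 to 3.0 in all other cells. The WT cells were of 2 kinds by the MGC marker Rlbp1, which encodes the retinaldehyde carrier CRALBP. It read 27908 or more in every Rhod-ko cell and every rd1 cell at 5 weeks, against 22.2, 24.5 and 147 in WT cells MG1, MG16 and MG22 and 109338 and 149346 in MG15 and MG3. The first 3 of these WT cells had 15, 15 and 17 of the 21 MGC markers on and the other 2 had 20 and 19, and Glul read 64815 or more in all 5. As a median over 5 cells can be set by these 3, the comparisons with WT were repeated with MG15 and MG3 alone, a choice made after the data were seen. The part of these differences in the results was not tested, except where values without the cells are given.

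The cytosolic members Hspa8 and Hsp90aa1 were on in every cell, and 9 of the 81 were on in at least 20 of 27 cells. The other 7 of these were Dnaja1 and Dnajc5 of the cytosol, Hspe1 of mitochondria, Hspa5, Calr and Canx of the ER, and Atf4. In contrast 16 members were on in no cell, which allows a share of up to 12.8% of cells, and among them were the inducible Hsp70 Hspa1a, the small heat shock genes Hspb7, Hspb8 and Hspb9, and the testis gene Dnajb3. A further 9 were on in 1 cell only. Hspa1b, a near-identical copy of Hspa1a, read 12898 in rd1 P13 cell A4 and no more than 362 in any other cell, and the ER isomerase Pdia4 read 11791 in WT cell MG16. Hspb2 read 12604 in Rhod-ko cell 3 at 8 weeks, Dnajb4 read 8685 in Rhod-ko cell A4 at 25 weeks and Hspa1l read 7760 in WT cell MG1. Only 3 members were on in several cells of a single condition: Dnajc28 in 2 WT cells, and Hspb1 and Pdia5 in all 3 congenic cells. Measured by a median of at least 1000 over all cells, 23 members were expressed, of 2369 genes in all, and these were 11 cytosolic, 3 mitochondrial and 7 ER members and the regulators Atf4 and Ddit3.

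**Figure D1:**
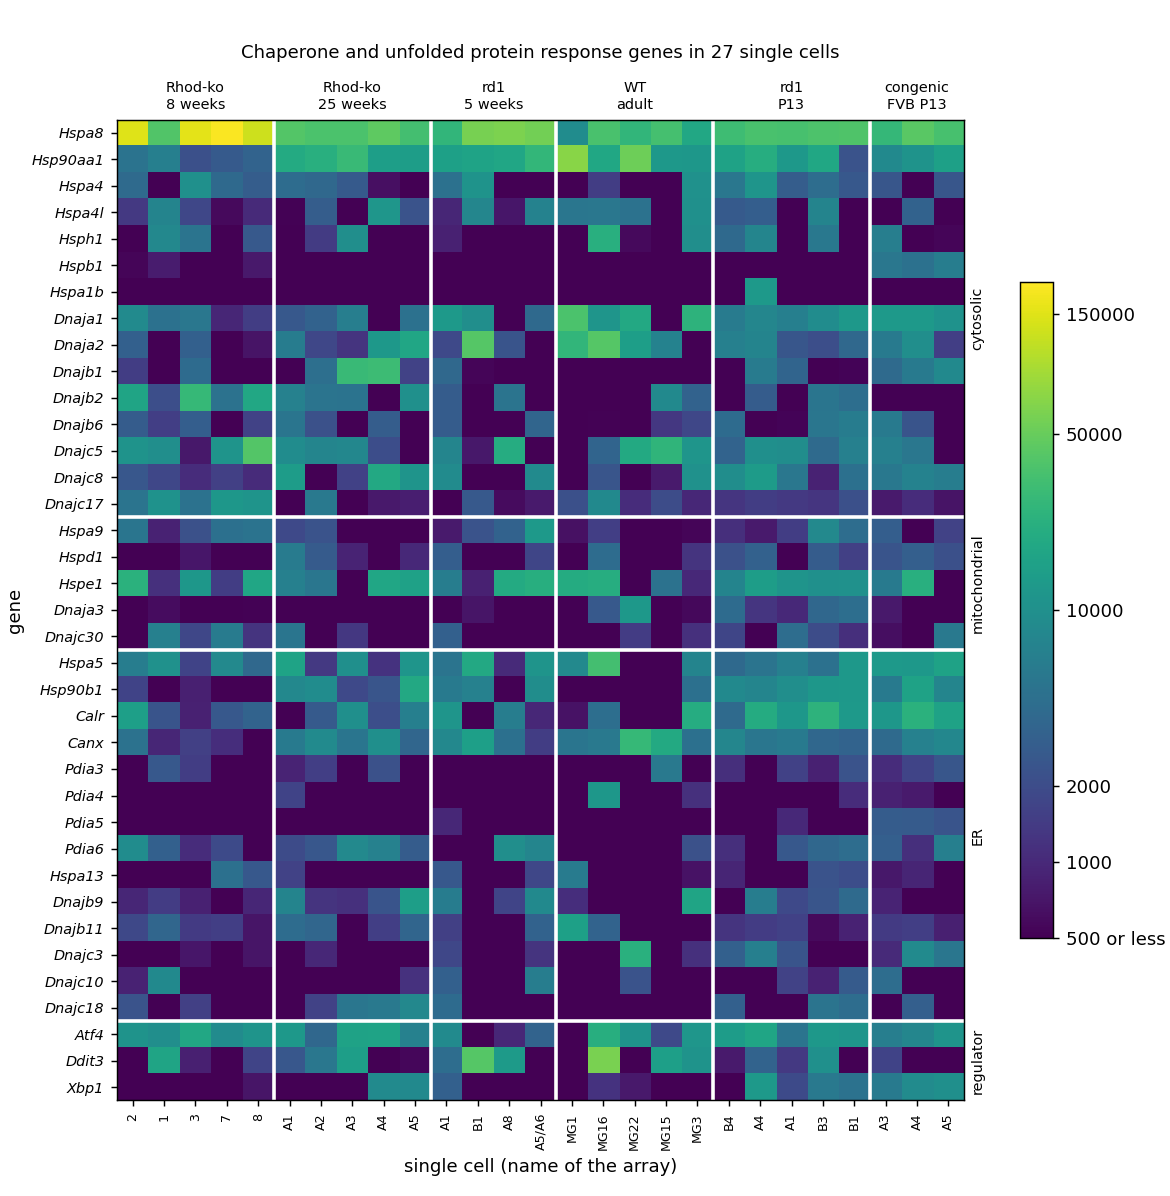
Signal of 37 chaperone and UPR genes (rows, by compartment) in each of 27 single cells (columns, by condition), on a log colour scale that ends at 500 or less. Hspa8 and Hsp90aa1 are on in all 27 cells, Hspa1b in 1 cell, and Hspb1 and Pdia5 only in the 3 congenic FVB cells; many others are on in some cells of a condition and off in others.

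The constitutive Hsp70 Hspa8, which also uncoats clathrin vesicles, was the member that was higher without overlap in Rhod-ko MGCs at 8 weeks. Its signal was 149640, 39006, 156301, 192673 and 125568 in Rhod-ko cells at 8 weeks, against 9156, 35652, 25546, 34407 and 17984 in WT cells. It was 40641, 36686, 36680, 44659 and 33593 in Rhod-ko cells at 25 weeks and 26041, 58166, 60591 and 56112 in rd1 cells at 5 weeks. All 5 Rhod-ko cells at 8 weeks lay above all 5 WT cells, although the lowest, cell 1, lay close to the highest WT cell, while at 25 weeks and in rd1 the ranges met those of WT. The difference at 8 weeks was 2.55 on the log2 scale, or 5.86-fold, with 2.41 between group means, and it stayed past 2-fold whichever cell was left out. It was 1.75 after quantile normalization and 1.77 after scaling to the same 90th percentile, and under both the ranges overlapped. Of the 4 probe sets of Hspa8, 3 carried signal and gave 2.78, 1.02 and 0.65, so the size of the difference depends on the probe set. In rd1 at 5 weeks Hspa8 was 2.24-fold higher (log2 difference 1.16, with 1.11 between group means and 0.86 after 90th percentile scaling) than in WT, a call that was lost without WT cell MG1 or MG3 (difference 0.95 each time). At P13 its signal was 31268 to 38565 in rd1 and 27143 to 43242 in congenic cells.

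Hsp90aa1, the stress-responsive Hsp90 of the cytosol, went the other way in the same cells. It read 4910, 6682, 2133, 2726 and 3372 in Rhod-ko cells at 8 weeks, against 68740, 17746, 52806, 12050 and 11901 in WT cells. The ranges did not overlap, and the difference was -2.40, which is 5.26-fold lower, with -2.76 between group means and -3.18 without WT cell MG15 or MG3. At 25 weeks the Rhod-ko cells read 13869 to 28655, within the WT range, as did rd1 cells at 5 weeks with 14994 to 26101. Among the 5 rd1 cells at P13 it was 15705, 21050, 12211, 17684 and 2326, against 8525, 10773 and 14909 in congenic cells, so that cell B1 alone lay far below the rest. In Rhod-ko cells at 8 weeks the probe set that was highest in 24 of 27 cells fell by 3.06, while another gave -0.21. The ratio of the 3′ to the 5′ Gapdh control was above that of every WT cell in all of these cells but cell 1, and its part in either gene was not tested. In Rhod-ko cells at 8 weeks the 100 brightest genes took 25.8 to 35.1% of the summed signal, against 15.5 to 21.5% in WT cells. The part of this in either gene was not tested. Both genes kept their calls with cells 1, 2 and 3 alone, with differences of 2.55 for Hspa8 and -1.85 for Hsp90aa1.

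**Figure D2:**
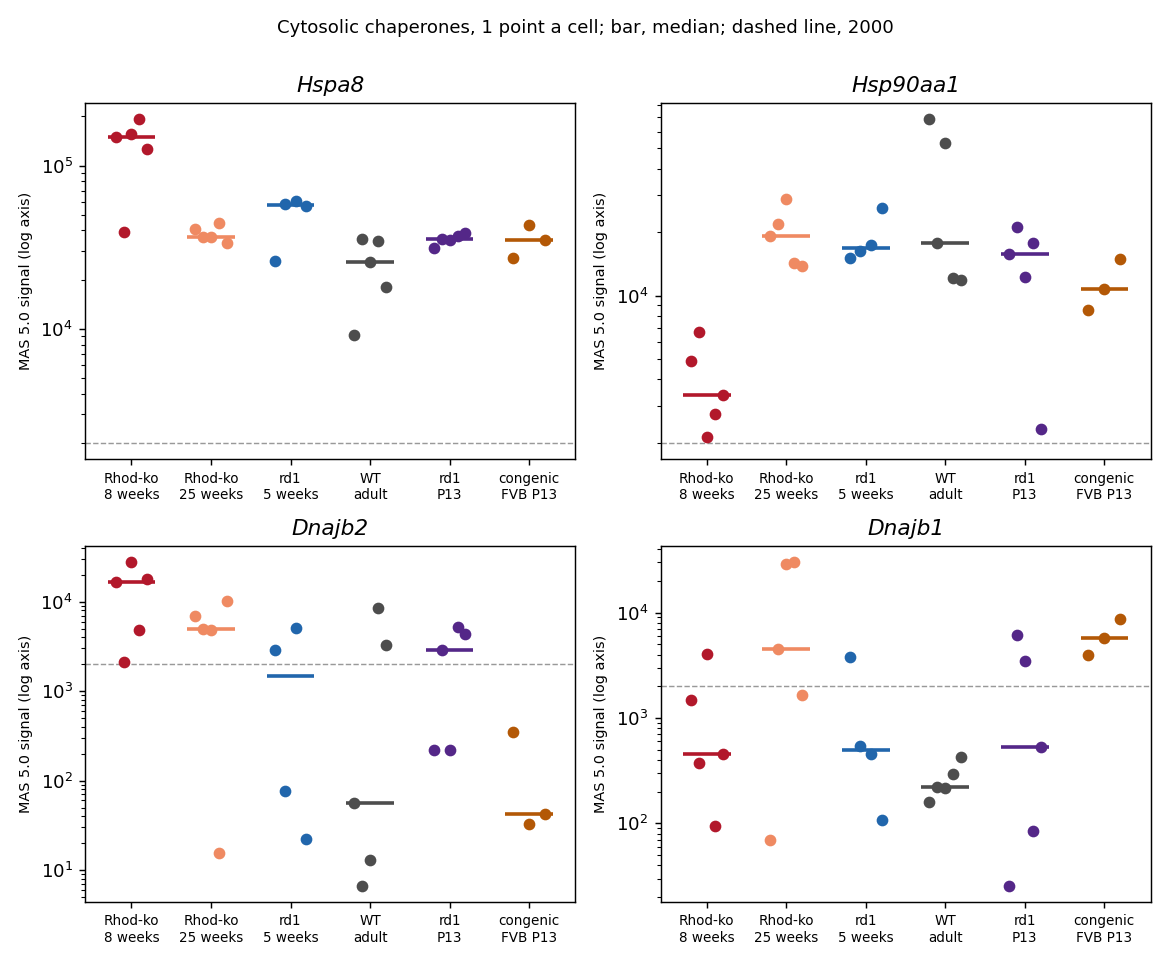
Signal (log axis) of 4 cytosolic chaperones in each cell, by condition, with the median as a bar and the limit of 2000 for a gene that is on as a dashed line. Hspa8 lies above WT and Hsp90aa1 below WT in every Rhod-ko cell at 8 weeks, and Dnajb1 exceeds 10000 only in 2 Rhod-ko cells at 25 weeks.

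Among the J proteins of the cytosol and nucleus Dnajb2, known for its abundance in neurons, reached 2000 in each Rhod-ko cell at 8 weeks. Its signal was 16604, 2095, 27922, 4778 and 17993 in these cells and 7014, 4977, 4891, 15.6 and 10203 in Rhod-ko cells at 25 weeks, against 55.6, 6.7, 12.9, 8580 and 3290 in WT cells. WT thus fell into 3 cells with 55.6 or less and 2 cells, MG15 and MG3, with 3290 and more, which is also how Rlbp1 divides them, and the ranges overlapped. The medians were 16.6-fold higher (log2 difference 4.05, with 2.31 between group means, 3.21 without Rhod-ko cell 2, 3.15 without Rhod-ko cell 3 or 8 and 3.19 without WT cell MG1, MG16 or MG22) at 8 weeks. At 25 weeks they were 4.98-fold higher (log2 difference 2.32, with 1.19 between group means, -0.09 with WT cells MG15 and MG3 alone and 1.46 without WT cell MG1, MG16 or MG22). With WT cells MG15 and MG3 alone the difference of Dnajb2 at 8 weeks was 1.64. Dnajc17, a nuclear J protein, read 4986, 10534, 4780, 11817 and 11182 in Rhod-ko cells at 8 weeks, against 2167, 8678, 1080, 1992 and 968 in WT cells, of which MG16 alone came within the Rhod-ko range. It was 5.29-fold higher (log2 difference 2.40, with 1.94 between group means) at 8 weeks, and at 25 weeks its signal was 400 to 5657.

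The class A J proteins Dnaja1 and Dnaja2, general partners of Hsp70, were lower by the median in all 3 comparisons with adult WT, which share the same 5 WT cells. Dnaja1 read 8774, 4631, 5314, 946 and 1476 in Rhod-ko cells at 8 weeks, 2575, 3272, 6418, 283 and 4633 at 25 weeks and 12426, 9660, 290 and 3897 in rd1 cells at 5 weeks, against 36607, 11366, 18675, 102 and 23765 in WT cells. WT cell MG15 had the lowest value of all cells. The other 4 WT cells lay above every Rhod-ko cell at both ages, whereas rd1 cell A1 reached above WT cell MG16. The differences of Dnaja1 were -2.01, -2.51 and -1.61, and that in rd1 was lost without rd1 cell A8 or A5/A6 (difference -0.95 each time). Against WT cells MG15 and MG3 alone they were -0.07, -0.58 and 0.33, so that no call was left. Without Rhod-ko cell 2 or 3 the difference at 8 weeks was -2.84 and without cell 1 -2.74, and that in rd1 was -2.26 without rd1 cell A1 or B1. The differences of Dnaja2 were -3.83, -1.21 and -2.76, against -1.42, 1.20 and -0.35 with those WT cells alone, where the direction at 25 weeks was turned. It was -3.01 at 8 weeks without Rhod-ko cell 1, 7 or 8, and at 25 weeks -2.10 without A4 or A5 and -0.74 after quantile normalization. Its call at 25 weeks was lost without Rhod-ko cell A2, A3, WT cell MG1 or MG16 (difference -0.71 each time) and turned to 0.40 with 1 probe set per gene, where a probe set of Dnaja2 that reached 41441 in WT cells, and no more than 1226 in these Rhod-ko cells, was not the one taken.

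Dnajb1, the heat-inducible J protein that works with Hspa1a, was off in WT and high in single cells elsewhere. It read 69.4, 4500, 28986, 30279 and 1646 in Rhod-ko cells at 25 weeks and 1485, 374, 4064, 95 and 451 at 8 weeks, against 160, 221, 215, 294 and 430 in WT cells. Cells A3 and A4 stood far above the others at 25 weeks, and the medians there were 4.50-fold higher (log2 difference 2.17, with 2.53 between group means, 3.51 without Rhod-ko cell A1 or A5, 2.79 without Rhod-ko cell A2 and 1.44 without Rhod-ko cell A3 or A4). Hspa1a stayed off in the same cells and Hspa1b read no more than 42.3 in them. At P13 Dnajb1 read 25.7, 6070, 3463, 85.1 and 528 in rd1 cells, against 3963, 5698 and 8637 in congenic cells, where it was on in all 3. In Rhod-ko cells at 25 weeks 11, 3, 11, 10 and 4 of 12 immediate early genes were on, against 1 to 5 in WT cells. Cell A1, with 11 of them on, had the lowest Dnajb1 of these Rhod-ko cells. Fos read 3587 to 35461 in Rhod-ko cells at 25 weeks, against 374 to 90168 in WT cells. The part of these early genes in the result was not tested.

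Of the Hsp110 exchange factors Hspa4 was on in all 5 rd1 cells at P13, while Hsph1 was on in no rd1 cell at 5 weeks. Hspa4 read 3935, 376, 10086, 3856 and 2944 in Rhod-ko cells at 8 weeks and 4108, 3777, 2708, 642 and 131 at 25 weeks, against 344, 1474, 122, 130 and 10352 in WT cells, where it was on in MG3 only. Its median was 3.86-fold higher (log2 difference 1.95, with 0.98 between group means, 0.95 with a floor of 2000 and 0.26 with WT cells MG15 and MG3 alone) at 8 weeks, but the probe set that gave this read no more than 131 in the cells at 25 weeks, where another probe set carried the signal. Hspa4l was lower in Rhod-ko, with 1362, 7486, 1797, 584 and 1009 at 8 weeks and 515, 2898, 124, 11521 and 2290 at 25 weeks, against 5219, 5409, 4766, 180 and 10146 in WT cells. Its differences were -1.94 at 8 weeks, with -1.24 between group means, and -1.19 at 25 weeks, with -0.83 between group means, -0.33 with 1 probe set per gene, -0.48 with WT cells MG15 and MG3 alone and -1.79 without Rhod-ko cell A2 or A4. Hsph1 was on or off from cell to cell, at 108 to 8158 in Rhod-ko at 8 weeks and 7.2 to 21828 in WT, and its call at 8 weeks was lost without Rhod-ko cell 1, 3, WT cell MG1, MG22 or MG15 (differences -0.20 to 0.71).

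Of the other cytosolic members, Dnajc8, a nuclear J protein tied to splicing, read 13577, 230, 1601, 18541 and 10975 in Rhod-ko cells at 25 weeks, against 264, 2407, 46, 764 and 10331 in WT cells. The medians were 11.0-fold higher (log2 difference 3.46, with 1.49 between group means, 2.07 without Rhod-ko cell A1 or A4, 2.22 without Rhod-ko cell A5 and 2.82 without WT cell MG1, MG22 or MG15). In rd1 at 5 weeks its call was lost without rd1 cell A1, A5/A6, WT cell MG1, MG22 or MG15 (differences 0.00 to 0.93). Dnajb6, which keeps proteins from aggregating, was 2.20-fold higher (log2 difference 1.14, with 0.76 between group means, 0.51 after quantile normalization, 0.54 after 90th percentile scaling, 0.14 with a floor of 2000 and 0.52 with WT cells MG15 and MG3 alone) at 25 weeks and lost this without Rhod-ko cell A1, A2, A4, WT cell MG1, MG16 or MG22 (differences 0.57 to 0.94). Dnajc5, the cysteine string protein of vesicles, read 7651, 742, 20355 and 369 in rd1 cells at 5 weeks, against 171, 3477, 19221, 25200 and 11267 in WT cells. It was 4.07-fold lower (log2 difference -2.03, with -1.02 between group means, -0.33 with 1 probe set per gene, -3.49 without rd1 cell A1 or A8 and -1.18 without WT cell MG22 or MG15) and lost this without rd1 cell B1 or A5/A6 (difference -0.56 each time). Dnajc12 was 2.49-fold higher (log2 difference 1.32, with 0.94 between group means, 0.85 after quantile normalization, 0.84 after 90th percentile scaling, 0.32 with a floor of 2000 and -0.06 with WT cells MG15 and MG3 alone) at 25 weeks.

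The mitochondrial members showed the Hsp70 Hspa9 higher in 2 conditions. Hspa9 read 5167, 879, 2229, 4564 and 4902 in Rhod-ko cells at 8 weeks and 778, 2341, 3274 and 12547 in rd1 cells at 5 weeks, against 653, 1528, 244, 388 and 538 in WT cells, where it was on in none. At 8 weeks only cell 1 came within the WT range, and in rd1 only cell A1. The medians were 4.56-fold higher (log2 difference 2.19, with 1.48 between group means) at 8 weeks and 2.77-fold higher (log2 difference 1.47, with 1.52 between group means and 0.47 with a floor of 2000) in rd1, and neither call was lost when 1 cell was left out. A single probe set of 5 carried both differences. At 25 weeks Hspa9 read 1873, 2300, 322, 124 and 264 in Rhod-ko cells.

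Hspd1 (Hsp60) and Hspe1 (Hsp10) form the folding chamber of mitochondria and lie head to head on chromosome 1, but they were often not on in the same cells. Hspd1 was off in every Rhod-ko cell at 8 weeks, at 256, 75.9, 722, 45.8 and 53.4, and on in 2 cells at 25 weeks, at 6045, 2793, 909, 318 and 995, against 9.4, 4151, 16, 25.3 and 1222 in WT cells, where MG16 alone had it on. At P13 it was on in 3 of 5 rd1 cells, at 2219, 3187, 278, 2861 and 1563, and in all 3 congenic cells, at 2375, 3092 and 2159. Both medians of Hspd1 lay under the floor in the comparison of Rhod-ko at 8 weeks with WT, so no fold is given. Hspe1 read 22691, 1160, 11817, 1480 and 17458 in Rhod-ko cells at 8 weeks, 6714, 5301, 82.4, 17340 and 15448 at 25 weeks and 6377, 861, 19368 and 21378 in rd1 cells at 5 weeks, against 19964, 20836, 27.2, 4765 and 1006 in WT cells. In each of these conditions the highest and the lowest cell differed by more than 10-fold. Its calls were lost without Rhod-ko cell 2, 3, 8, WT cell MG22 or MG3 (differences -0.19 to 0.28) at 8 weeks, and without rd1 cell A8, A5/A6, WT cell MG22 or MG3 (differences 0.19 to 0.42) in rd1. Hspd1 and Hspe1 have 5 and 6 named pseudogenes in the RefSeq table, and how far these add to the probe sets is unknown.

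The mitochondrial J protein Dnaja3 was the member without overlap that was higher in rd1 at P13. It read 4077, 1262, 995, 3681 and 4344 in rd1 cells, against 762, 132 and 111 in congenic cells, 3.68-fold higher (log2 difference 1.88, with 1.27 between group means, 0.88 with a floor of 2000, 1.11 without rd1 cell B4 or B1 and 1.18 without rd1 cell B3). With A1 and B1 alone, the rd1 cells that carried vascular markers as the congenic cells did, the difference was 1.06. In WT cells Dnaja3 was on in MG16 and MG22, at 2637 and 12087. Dnajc11, Dnajc15 and Dnajc30 were on in 3, 3 and 7 cells of 27 and passed 2-fold in no comparison.

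Stretches of promoter are shown here for the ER and mitochondrial members, because 6 of the 19 promoters of ER members held an ER stress response element (ERSE), the site through which ATF6 and XBP1 act, and no promoter of any other member did. The motif was searched as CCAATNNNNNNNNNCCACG on both strands of the 250 bases before each gene start in RefSeq (build GRCm38.p6), where 68 of the 81 members had 85 promoters. It occurred in 31.6% of the promoters of ER members, against 0.113%, or 37, of all 32851 promoters. Each line gives 15 bases on either side along the strand of the gene, with the match in capitals; Calr and the second site of Hsp90b1 hold it as the reverse complement.
Hspa5: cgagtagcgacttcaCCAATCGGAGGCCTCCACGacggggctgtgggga
Hsp90b1: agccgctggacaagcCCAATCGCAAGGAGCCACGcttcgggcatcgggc
Hsp90b1: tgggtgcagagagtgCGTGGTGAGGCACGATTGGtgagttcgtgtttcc
Calr: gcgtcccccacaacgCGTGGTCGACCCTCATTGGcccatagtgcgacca
Canx: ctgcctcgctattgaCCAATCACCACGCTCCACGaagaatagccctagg
Dnajc3: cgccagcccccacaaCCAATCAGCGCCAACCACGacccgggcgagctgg
Pdia6: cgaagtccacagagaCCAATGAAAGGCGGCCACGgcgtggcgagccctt
They lie at chr2:34772010-34772058 (plus strand) for Hspa5, chr10:86705623-86705671 (minus strand) and chr10:86705518-86705566 (minus strand) for Hsp90b1, chr8:84847060-84847108 (minus strand) for Calr, chr11:50325785-50325833 (minus strand) for Canx, chr14:118937812-118937860 (plus strand) for Dnajc3 and chr12:17266476-17266524 (plus strand) for Pdia6. The first base of the match lay 65 bases before the start of Hspa5 and 212 bases before that of Hsp90b1. A heat shock element, searched as 3 blocks GAA, TTC and GAA, or TTC, GAA and TTC, with any 2 bases between blocks, on both strands, occurred in 153 of the 32851 promoters (0.466%) and in those of Hspd1 and Hspe1, which share 1 stretch read from either strand, and of Dnajb6.
Hspd1: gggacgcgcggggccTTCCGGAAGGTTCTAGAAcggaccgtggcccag
Hspe1: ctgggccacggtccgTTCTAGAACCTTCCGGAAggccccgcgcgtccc
Dnajb6: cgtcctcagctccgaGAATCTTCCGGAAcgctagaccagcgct
The capitals span 2 overlapping matches in the shared stretch, at chr1:55088044-55088091 (plus strand) for Hspe1, and 1 match in Dnajb6, at chr5:29735837-29735879 (plus strand). A match in these letters is a description of the promoter and not a site shown to be bound. No promoter of Hspa1a, Hspa1b, Hspb1 or Dnajb1 gave a match for the heat shock element. Not every member had a promoter to search, and only exact blocks within 250 bases were counted. That result therefore does not show that these genes lack the element.

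Of the 6 genes with an ERSE, Hsp90b1, Calr and Pdia6 were higher in Rhod-ko at 25 weeks and in rd1 at 5 weeks, at 8 weeks Calr was higher and Canx lower, and at P13 Hspa5 and Dnajc3 were lower in rd1. Of all expressed genes 39.0% and 32.2% were higher in the first 2 of these, 33.7% higher and 25.8% lower at 8 weeks, and 14.5% lower at P13. With WT cells MG15 and MG3 alone Hsp90b1 kept both calls, at 1.92 and 1.58, while Calr and Pdia6 kept neither. The part of the element in these calls was not tested. Hspa5, the main ER Hsp70, was on in 21 of 27 cells. It read 6329, 10349, 1657, 8333 and 3804 in Rhod-ko cells at 8 weeks, 15954, 1340, 9981, 1212 and 11260 at 25 weeks and 4991, 18621, 1028 and 11138 in rd1 cells at 5 weeks, against 8423, 33368, 368, 284 and 7387 in WT cells. WT held the highest cell, MG16, and 2 cells that were off, MG22 and MG15. The differences, -0.22, 0.43 and 0.01, did not reach 2-fold, and the 2 probe sets with signal disagreed, at -0.59 and 1.91 at 8 weeks. At P13 Hspa5 read 3831, 5044, 6836, 4676 and 12088 in rd1 cells, against 12599, 12170 and 15735 in congenic cells. The ranges did not overlap, both probe sets gave a difference in this direction, at -1.32 and -1.38, and the difference over the gene was -1.32. It was -1.43 with rd1 cells B4, A4 and B3 alone and -0.47 with A1 and B1, the rd1 cells that carried vascular markers as the congenic cells did, and in the second case it did not reach 2-fold.

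Hsp90b1, whose promoter held 2 of the elements, was on in most Rhod-ko cells at 25 weeks and rd1 cells at 5 weeks. It read 8150, 9112, 1879, 2442 and 18568 in Rhod-ko cells at 25 weeks and 5899, 7011, 110 and 9501 in rd1 cells at 5 weeks, against 158, 500, 31.9, 354 and 4607 in WT cells. In Rhod-ko cells at 8 weeks it was 1676, 81.2, 850, 343 and 183, off in all 5. Hsp90b1 was therefore on in 4 of 5, 3 of 4 and 0 of 5 cells of these conditions, against 1 of 5 WT cells, MG3. The medians were 8.15-fold higher (log2 difference 3.03, with 2.08 between group means, 2.24 without Rhod-ko cell A1 and 2.16 without Rhod-ko cell A2 or A5) at 25 weeks and 6.43-fold higher (log2 difference 2.69, with 1.71 between group means) in the older rd1 mice, and neither call was lost when any 1 cell was left out. In all 5 rd1 cells at P13 it read 7654 to 12290, against 5942 to 15750 in the 3 congenic cells, a difference of 0.35. Set against congenic FVB in place of adult WT, rd1 at 5 weeks gave -0.25.

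**Figure D3:**
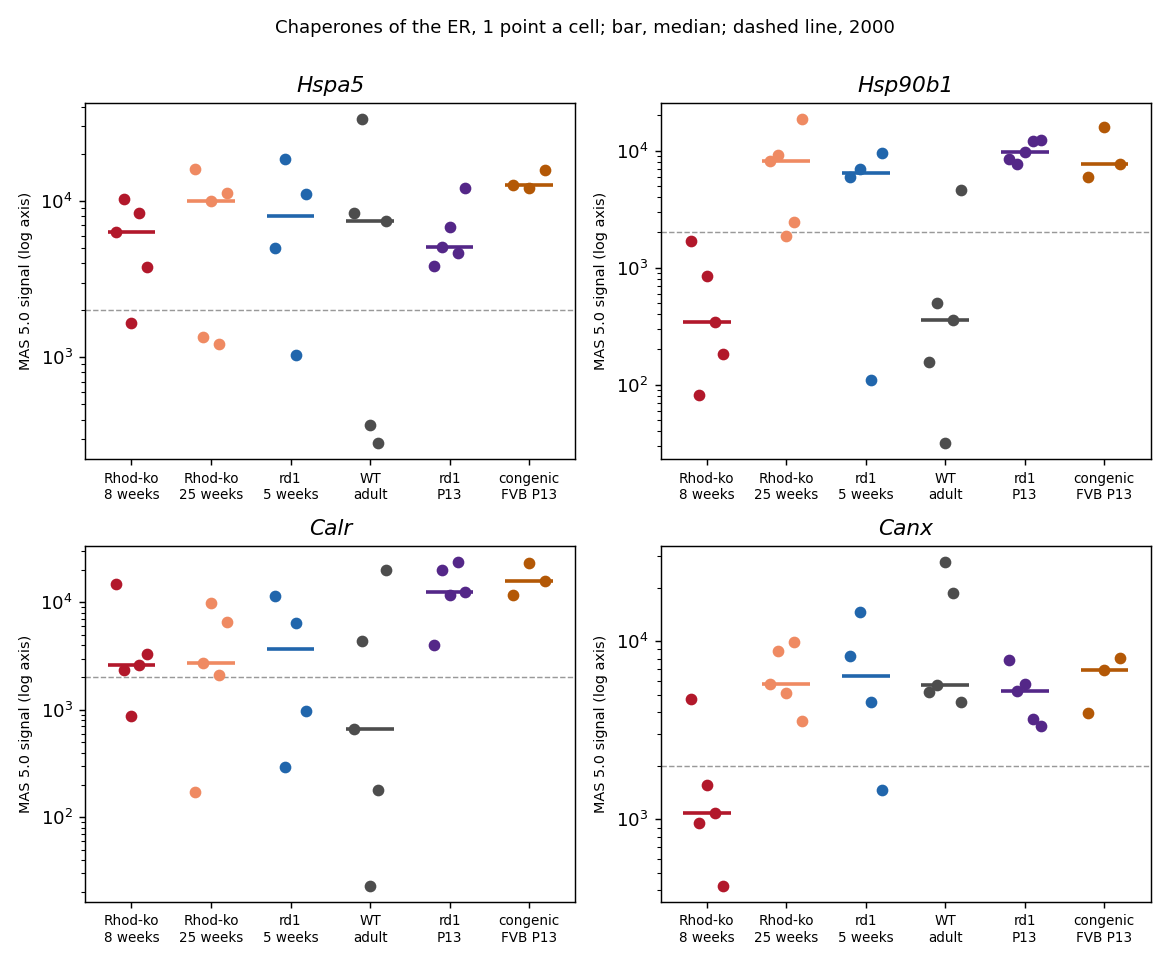
Signal (log axis) of 4 ER chaperones in each cell, by condition, with the median as a bar and the limit of 2000 as a dashed line. Hsp90b1 is off in all 5 Rhod-ko cells at 8 weeks and in 4 of 5 WT cells and on in all cells at P13, and Canx is off in 4 of 5 Rhod-ko cells at 8 weeks.

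Calr and Canx hold glycoproteins in the ER until they are folded. Calr read 14694, 2373, 872, 2614 and 3329 in Rhod-ko cells at 8 weeks, 173, 2752, 9775, 2127 and 6602 at 25 weeks and 11443, 294, 6366 and 985 in rd1 cells at 5 weeks, against 667, 4357, 23.1, 178 and 20222 in WT cells. WT held both the lowest and the highest of these adult cells, and its place depended on the measure. By the median Calr was 2.61-fold higher (log2 difference 1.39, with 0.36 between group means, 0.90 after 90th percentile scaling, 0.39 with a floor of 2000 and -0.78 with WT cells MG15 and MG3 alone) at 8 weeks, 2.75-fold higher (log2 difference 1.46, with 0.42 between group means, 0.07 after quantile normalization, 0.03 after 90th percentile scaling, 0.46 with a floor of 2000, -0.71 with WT cells MG15 and MG3 alone and 2.09 without Rhod-ko cell A1 or A4) at 25 weeks and 2.52-fold higher (log2 difference 1.34, with 0.25 between group means, 0.42 after quantile normalization, 0.71 after 90th percentile scaling, 0.84 with a floor of 2000, -0.83 with WT cells MG15 and MG3 alone and 2.67 without rd1 cell B1 or A5/A6) in rd1. These calls were lost without WT cell MG1, MG22 or MG15 (difference 0.32 each time) at 8 weeks, without WT cell MG1, MG22 or MG15 (difference 0.40 each time) at 25 weeks and without rd1 cell A1, A8, WT cell MG1, MG22 or MG15 (differences 0.00 to 0.27) in rd1. At P13 it was on in every cell, at 3991 to 23856 in rd1 and 11784 to 23031 in congenic cells. Canx read 4772, 959, 1565, 1091 and 425 in Rhod-ko cells at 8 weeks, against 5175, 5651, 27947, 18790 and 4591 in WT cells. Only cell 2 came within the WT range, and Canx was 5.18-fold lower (log2 difference -2.37, with -2.62 between group means, -3.24 without WT cell MG1 or MG3 and -3.18 without WT cell MG16), a call that held whichever cell was left out. At 25 weeks the signal was 3585 to 9956 and the difference 0.03.

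Of the enzymes that form disulfide bonds in the ER, Pdia6 was on in most Rhod-ko cells at 25 weeks (4 of 5), with 1957, 2546, 8386, 6908 and 2879, and read 9296, 3148, 1060, 1900 and 183 in Rhod-ko cells at 8 weeks, against 69.9, 68.5, 222, 45.4 and 2221 in WT cells. Its medians were 2.88-fold higher (log2 difference 1.53, with 1.71 between group means, 0.53 with a floor of 2000, 0.95 with WT cells MG15 and MG3 alone and 2.16 without Rhod-ko cell A1 or A2) at 25 weeks and 2.78-fold higher (log2 difference 1.47, with 1.33 between group means, 0.97 with a floor of 2000, 0.90 with WT cells MG15 and MG3 alone and 2.95 without rd1 cell A1 or B1) in the older rd1 mice, the second of which was lost without rd1 cell A8 or A5/A6 (difference 0.00 each time). Pdia3, the partner of Calr and Canx, was on in 5 of 27 cells and Pdia4 in 1, and neither passed 2-fold in any comparison. Pdia5 was on in the congenic cells only, and Pdia2 in no cell.

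The ER J proteins hand clients to Hspa5 or to degradation. Dnajb9 (ERdj4), an IRE1 target, read 7403, 1235, 1160, 2358 and 14508 in Rhod-ko cells at 25 weeks and 6123, 26.8, 1702 and 8636 in rd1 cells at 5 weeks, against 1088, 89.4, 164, 115 and 16340 in WT cells, where MG3 stood alone. By the median it was 2.36-fold higher (log2 difference 1.24, with 0.87 between group means, 0.96 after quantile normalization, 0.24 with a floor of 2000, -0.78 with WT cells MG15 and MG3 alone and 2.06 without Rhod-ko cell A2 or A3) at 25 weeks and 3.23-fold higher (log2 difference 1.69, with 0.79 between group means, 0.81 with a floor of 2000, -0.32 with WT cells MG15 and MG3 alone and 2.61 without rd1 cell B1 or A8) in rd1, calls that were lost without Rhod-ko cell A1 or A5 (difference 0.77 each time) and without rd1 cell A1 or A5/A6 (difference 0.77 each time). At P13 it was on in 3 of 5 rd1 cells, at 12.9, 6331, 1887, 2413 and 3991, and in no congenic cell, at 906, 31.2 and 5.9, 2.41-fold higher (log2 difference 1.27, with 1.37 between group means, 0.91 after 90th percentile scaling and 0.27 with a floor of 2000). Dnajb11 (ERdj3) was 3.54-fold higher (log2 difference 1.83, with 0.13 between group means, 0.83 with a floor of 2000, 1.21 without Rhod-ko cell A1 or A2 and 1.22 without Rhod-ko cell A5) by the median at 25 weeks, with the highest of all cells in WT, MG1 at 15147, and the call was lost without WT cell MG22, MG15 or MG3 (difference 0.95 each time). Dnajc18, a J protein of the ER membrane, read 359, 1644, 5188, 5694 and 8183 in Rhod-ko cells at 25 weeks, against 327, 137, 128, 150 and 300 in WT cells, with no overlap. Its medians were 5.19-fold higher (log2 difference 2.38, with 1.73 between group means, 1.61 without Rhod-ko cell A3 and 1.55 without Rhod-ko cell A4 or A5), although its lowest Rhod-ko cell, A1, and all WT cells lay under the floor. Dnajc3, an inhibitor of the PERK branch, was on in 6 cells, among them WT cell MG22 at 22221. Dnajc10 and Hspa13 were each on in 6 cells spread over several conditions.

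The 3 regulators behaved differently. Atf4 was on in 23 of 27 cells, and its signal was 8796, 419, 983 and 3393 in rd1 cells at 5 weeks, against 140, 21441, 10956, 1895 and 11675 in WT cells. It was 5.95-fold lower (log2 difference -2.57, with -1.24 between group means, -3.45 without rd1 cell A1 or A5/A6, -1.69 without rd1 cell B1 or A8, -1.31 without WT cell MG16 or MG3 and -1.35 without WT cell MG22) there, kept the call whichever cell was left out, and overlapped with WT through cells MG1 and MG15. In Rhod-ko it was on in every cell, at 8999 to 18071 at 8 weeks and 3714 to 16288 at 25 weeks. Ddit3 varied widely within conditions, at 28.7, 16362, 844, 77.2 and 1713 in Rhod-ko cells at 8 weeks, 2534, 5434, 14345, 333 and 562 at 25 weeks and 4263, 41149, 12972 and 33 in rd1 cells at 5 weeks, against 43.5, 60423, 32, 14848 and 10955 in WT cells. The highest signal of Ddit3 in the series lay in WT cell MG16. It was 11.0-fold lower (log2 difference -3.45, with -1.69 between group means, -1.73 without WT cell MG16 or MG15 and -1.95 without WT cell MG3) at 8 weeks, where cell 1 alone had it on, and 4.32-fold lower (log2 difference -2.11, with -1.13 between group means and -2.78 without Rhod-ko cell A2 or A3) at 25 weeks, which was lost without WT cell MG16, MG15 or MG3 (differences -0.60 to -0.39). Its only probe set with signal carried these values.

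Xbp1 was off in all Rhod-ko cells at 8 weeks and in all WT cells, at 80.4 to 710 and 73.9 to 1208. At 25 weeks it read 20.4, 43, 138, 8873 and 8588 in Rhod-ko cells, so that A4 and A5 had it on and A1, A2 and A3 did not. In rd1 cells at P13 it was 29.9, 12520, 1911, 5615 and 4787, against 5777, 9070 and 9796 in congenic cells, and rd1 cell A1 at 5 weeks read 3136. It passed 2-fold in none of the 4 comparisons, with -0.92 at P13. Taken singly, its 4 probe sets gave -2.50, -1.81, -2.04 and -0.21 at P13. One level per gene was read, so spliced and unspliced Xbp1 mRNA were not told apart.

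The first comparison asked how MGCs of Rhod-ko retina at 8 weeks, during rod loss, differ from adult WT. Of the 81 members 8 were higher, Dnajb2, Hspa8, Dnajc17, Hspa9, Hspa4, Hsph1, Calr and Hspe1, and 6 were lower, Dnaja2, Ddit3, Hsp90aa1, Canx, Dnaja1 and Hspa4l. That is 9.88% and 7.41% of members, against 6.17% higher and 5.12% lower of all genes. Of the 23 expressed members 7 (30.4%) were higher and 6 (26.1%) lower, against 33.7% and 25.8% of all expressed genes. Measured so, the members were called about as often as other expressed genes. Without overlap Hspa8 alone was higher and Hsp90aa1 alone lower, where all genes gave 0.907% and 0.561%. The median difference over the expressed members was 0.61, against 0.11 over all expressed genes. Calr was lost without WT cell MG1, MG22 or MG15 (difference 0.32 each time), Hspe1 without Rhod-ko cell 2, 3, 8, WT cell MG22 or MG3 (differences -0.19 to 0.28) and Hsph1 without Rhod-ko cell 1, 3, WT cell MG1, MG22 or MG15 (differences -0.20 to 0.71), whereas the other 11 calls held whichever cell was left out and all 14 held with cells 1, 2 and 3 alone. The count without overlap was 4 without WT cell MG16, MG15 or MG3. With WT cells MG15 and MG3 alone 7 members were higher, 12 lower and 4 without overlap, and 10 of the 14 calls were kept, the exceptions being Calr, Dnaja1, Hspa4 and Hsph1. Of related genes outside the set, 3 of 28 ER stress genes were higher and 2 lower. A further 22 heat shock and cochaperone genes were listed as cytosolic, although 1 of them, the collagen chaperone Serpinh1, belongs to the ER. Of these 8 were higher, such as Stub1 at 2.74, Fkbp4 at 1.80 and Serpinh1 at 1.43. Lower were 4, such as the chaperonin subunit Cct6a at -3.22. A mitochondrial list of 11 genes held chaperones, proteases and the transcription factor Atf5. Of these 2 were higher, Grpel1 at 2.66 and Atf5 at 1.68, and 2 lower. None of the 12 immediate early genes was higher and 2 were lower, Fos at -4.28 and Btg2 at -3.25, of which Fos was without overlap.

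Rhod-ko at 25 weeks, when cones are being lost, had 13 members higher and 4 lower than adult WT. The higher ones were led by Dnajc8, Hsp90b1, Dnajc18, Dnajb2 and Dnajb1. Of the 13, 6 were among the 20 ER members: Hsp90b1, Dnajc18, Dnajb11, Pdia6, Calr and Dnajb9. The calls of Hsp90b1, Dnajc18 and Pdia6 held whichever cell was left out, whereas those of Dnajb11, Calr and Dnajb9 did not. Those of Calr and Dnajb9 were also lost after quantile normalization. No ER member was lower, but only 3.7% of all genes were. Whether ER members were higher more often than other expressed genes was not tested. The lower ones were Dnaja1, Ddit3, Dnaja2 and Hspa4l. The counts are 16.0% and 4.94% of members, against 7.9% higher and 3.7% lower of all genes. Of the 23 expressed members 9 (39.1%) were higher and 4 (17.4%) lower, against 39.0% and 15.8% of all expressed genes. The medians were 0.43 over the expressed members and 0.47 over all expressed genes. Dnajc18 alone was without overlap among those higher and none among those lower, where all genes gave 0.412% and 0.291%. The count without overlap was 3 without Rhod-ko cell A1, 2 without WT cell MG15 and 4 without WT cell MG3, and 7 were lower without WT cell MG22. With WT cells MG15 and MG3 alone 10 members were higher, 6 lower and 2 without overlap, and 7 of the 17 calls were kept, while 6 turned direction. Of the calls, 9 of 17 held whichever cell was left out, and Hspa4 and Hspb11 were among those lost, without Rhod-ko cell A1, A2 or A3 (differences 0.72 to 0.96) and without Rhod-ko cell A2 or A4 (difference 0.73 each time). Scaled to the same 90th percentile, which moved the median over expressed genes to -0.08, 8 members were higher and 9 lower, or 47.1% higher of those called in place of 76.5%, and 61.5% after quantile normalization; over all genes these were 40.9% and 56.4% in place of 68.1%. Of the 28 ER stress genes outside the set 3 were higher, Herpud1 at 1.73, Ssr1 at 1.46 and P4hb at 1.36, and 2 lower. Of the 22 genes listed as cytosolic 3 were higher and 4 lower. Of the 11 on the mitochondrial list 4 were higher, Grpel1, Clpp, Timm44 and the transcription factor Atf5, and 2 lower. Of the 12 immediate early genes 8 were higher and none lower.

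In rd1 at 5 weeks 10 members were higher and 4 lower than in adult WT, and none of them was without overlap. Hsp90b1, Dnajb9, Dnajc8, Pdia6, Hspa9, Hspa12a, Calr, Hspe1, Hspa8 and Hspa4 were higher, and Dnaja2, Atf4, Dnajc5 and Dnaja1 lower. These are 12.3% and 4.94% of members, against 6.35% higher and 4.25% lower of all genes, and among expressed members 9 (39.1%) and 4 (17.4%) of 23, against 32.2% and 19.8% of expressed genes. Without overlap all genes gave 0.346% in either direction. The medians were 0.31 over the expressed members and 0.26 over all expressed genes. Only Hsp90b1, Hspa9, Dnaja2 and Atf4 held whichever cell was left out, and Hspa4 was lost without rd1 cell A1, B1, WT cell MG1, MG22 or MG15 (differences 0.00 to 0.82) and Hspa12a without rd1 cell A1 or A5/A6 (difference 0.33 each time). Without WT cell MG22 there were 6 members higher and 7 lower, and without WT cell MG3 there were 7 lower. With WT cells MG15 and MG3 alone 6 were higher, 7 lower and 2 without overlap, and 7 of the 14 calls were kept, while 5 turned direction. Without rd1 cell A1 there were 2 without overlap, and 1 without rd1 cell B1 or A8 or WT cell MG16, MG15 or MG3. Scaled to the same 90th percentile 43.8% of the called members were higher in place of 71.4%. Of 81 members, 33 were on in rd1 cell A1, which also had 5 of 7 cone and 4 of 6 amacrine markers on, against 13 to 18 in the other 3 cells. Of all genes 17.6% were on in A1, against 10.2, 12.0 and 13.7% in B1, A8 and A5/A6. Of the genes outside the set 2 of 28 ER stress genes were higher, Herpud1 at 3.54 and Derl1 at 2.47, and 2 lower. Of the 22 genes listed as cytosolic 5 were higher and 5 lower. Of the 11 on the mitochondrial list 2 were lower and 1 was higher, the transcription factor Atf5 at 3.51. Of the 12 immediate early genes Btg2 alone was lower, at -3.07, and none was higher.

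At P13, during the peak of rod loss in rd1, 7 members were higher and 6 lower in rd1 than in congenic FVB. All congenic cells had 10 to 12 of 14 vascular markers on, as had rd1 cells A1 and B1 but not B4, A4 and B3. In this comparison the kind of cell therefore cannot be told apart from the genotype. The higher ones were Hsph1, Dnaja3, Dnajc18, Dnajb2, Hspa4l, Dnajb9 and Dnajc4, and the lower ones Hspa12b, Dnajb1, Hspb1, Pdia5, Hspa5 and Dnajc3. They make up 8.64% and 7.41% of members, against 4.79% higher and 6.41% lower of all genes, and among expressed members 3 (13.0%) and 1 (4.35%) of 23, against 22.0% and 14.5% of expressed genes. Dnaja3 was higher without overlap, and Hspb1, Pdia5 and Hspa5 lower, where all genes gave 0.55% and 0.901%. The medians were 0.35 over the expressed members and 0.07 over all expressed genes. Calls of Hsph1, Dnajc18, Dnajb2, Hspa4l, Dnajc4 and Dnajc3 were each lost when 1 of several cells was left out, for example Hsph1 without rd1 cell A4, B3, congenic cell A4 or A5 (differences 0.60 to 0.98), Dnajb2 without rd1 cell B3 or B1 (difference 0.76 each time) and Dnajc3 without rd1 cell B3, B1, congenic cell A4 or A5 (differences -0.92 to 0.06). Scaled to the same 90th percentile 40.0% of the called members were higher in place of 53.8%. Without rd1 cell B3 there were 3 members higher, and without rd1 cell A4 there were 7 without overlap. Of the genes outside the set 1 of 28 ER stress genes was higher and 4 lower, among them Sel1l at -2.08 and Manf at -1.29. Of the 22 genes listed as cytosolic 3 were higher, with the small heat shock gene Cryab at 4.75. Lower were 5 of them, with Serpinh1, the collagen chaperone of the ER, at -2.01. On the mitochondrial list 2 of 11 were higher, Trap1 at 3.08 and the transcription factor Atf5 at 2.73, and 4 lower. Of the 12 immediate early genes 4 were higher, Fos at 2.45, Egr1 at 2.37, Btg2 at 1.84 and Ier2 at 1.09, and Dusp1 was lower.

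Some members were on in all 3 congenic cells, which carried vascular markers, and in few or no other cells. Hspb1 (Hsp27), a small heat shock protein, read 161, 178, 18, 199 and 107 in rd1 cells at P13, against 5394, 4709 and 6322 in congenic cells, and its highest value in the other 19 cells was 796. Pdia5 read 7.1, 17.6, 987, 24.6 and 17.4 in rd1 cells, against 2863, 2781 and 2357 in congenic cells. Neither gene overlapped between the 2 conditions, and Hspb1 was 5.39-fold lower (log2 difference -2.43, with -2.44 between group means) in rd1 and Pdia5 2.78-fold lower (log2 difference -1.48, with -1.41 between group means and -0.48 with a floor of 2000). Both were off in rd1 cells A1 and B1 too, which had 10 or more vascular markers on as the congenic cells did. All rd1 values of both genes lay under the floor, that of Pdia5 in A1, at 987, only just. Any choice of rd1 cells therefore gives the same differences, -2.43 and -1.48. Their equal size with A1 and B1 alone is set by the floor, and the part of vascular identity was not tested by it. Hspa12b, known from endothelium, read 96, 35.6, 11874, 138 and 6539 in rd1 cells, against 7699, 11629 and 2757 in congenic cells. It was on in A1 and B1 and in the congenic cells and in no other of the 27. Its difference was -2.94 over all rd1 cells, with -1.39 between group means, -1.59 without rd1 cell B4, A4 or B3 and -2.20 without congenic cell A4, and 0.19 with A1 and B1 alone. With B4, A4 and B3 alone 11 of the 13 calls at P13 were kept, the exceptions being Dnajc3 and Dnajc4, and with A1 and B1 alone 9, the exceptions being Hspa12b, Hspa4l, Hspa5 and Hsph1.

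**Figure D4:**
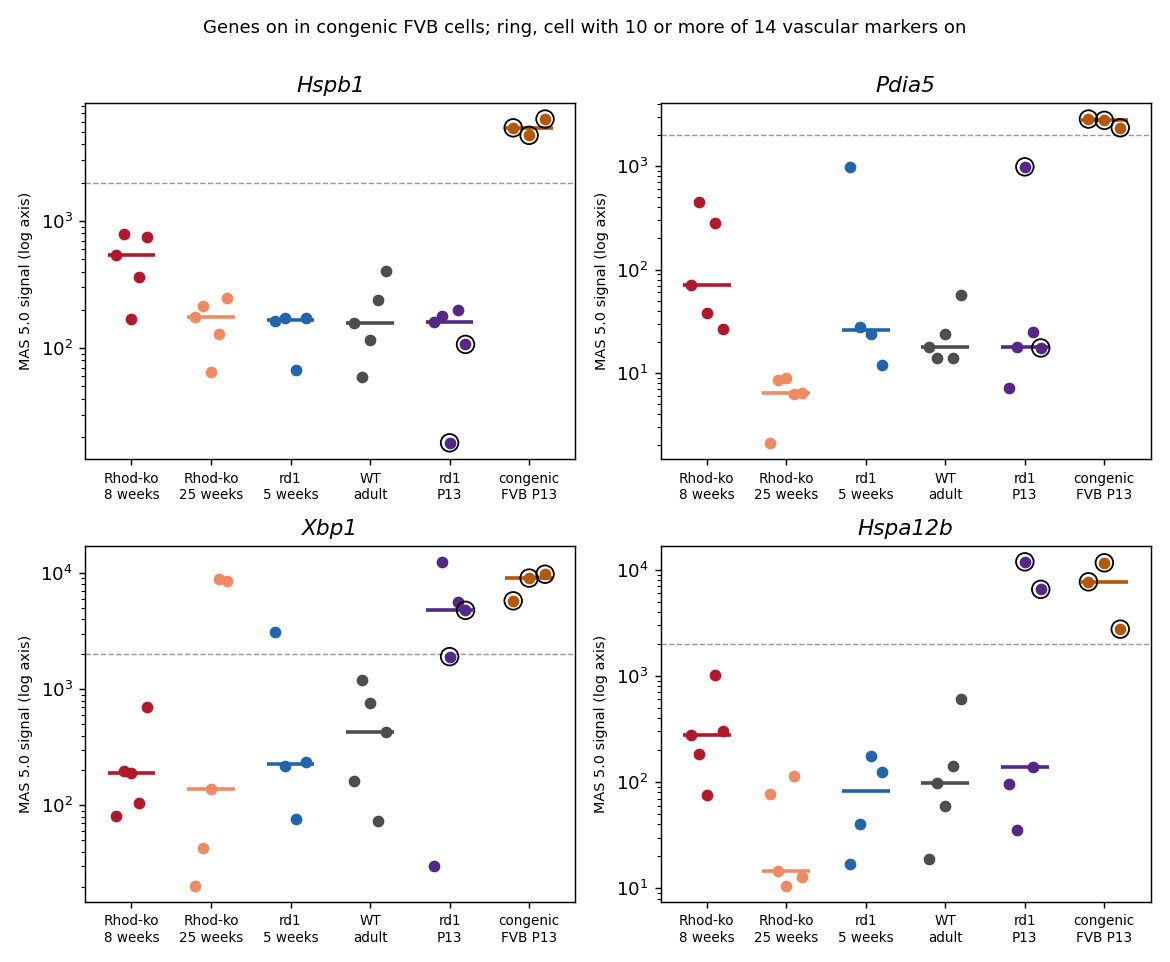
Signal (log axis) of 4 genes that were on in all congenic FVB cells, by condition, with the median as a bar, the limit of 2000 as a dashed line and a ring round each of the 5 cells with 10 or more of 14 vascular markers on. Hspa12b is on in the 5 ringed cells only, whereas Hspb1 and Pdia5 are on in the 3 congenic cells but not in the 2 ringed rd1 cells.

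The number of members on per cell followed the number of genes on. Rhod-ko cells had 13 to 19 members on at 8 weeks and 18 to 26 at 25 weeks, and rd1 cells at 5 weeks 13 to 33, against 11 to 22 in WT cells. At P13 it was 20 to 32 in rd1 cells, against 24 to 27 in congenic cells. Of all 18194 genes a share of 10.8 to 13.0% was on in Rhod-ko at 8 weeks and of 14.7 to 17.2% at 25 weeks. It was 10.2 to 17.6% in rd1 at 5 weeks, against 10.2 to 14.3% in WT. At P13 it was 15.6 to 16.9% in rd1, against 16.1 to 16.5% in congenic cells. The members together took 0.494 to 0.942% of the summed signal of a Rhod-ko cell at 8 weeks, against 0.613 to 1.15% of a WT cell, and without Hspa8 0.326 to 0.487%, against 0.486 to 1.03%.

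**Figure D5:**
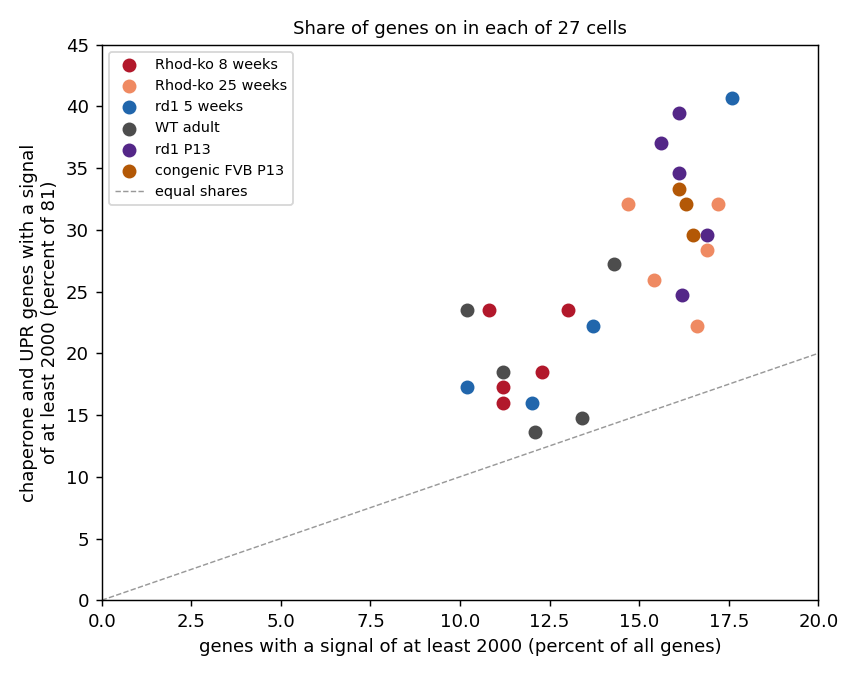
Percent of the 81 chaperone and UPR genes on (vertical axis) against percent of all 18194 genes on (horizontal axis), 1 point a cell, with the line of equal shares dashed. Cells with more genes on have more members on, from 13.6% of members in WT cell MG22 to 40.7% in rd1 cell A1 at 5 weeks, and all 27 cells lie above the line.

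Over the 27 cells Pearson's r of log2 signals, floored at 100, had a median of 0.20 over the 21 pairs of the 7 expressed ER members, with a range of -0.35 to 0.43. It had a median of -0.01 over the 55 pairs of cytosolic members and 0.19 over the 3 pairs of mitochondrial members, against 0.02 over all pairs of expressed genes. Atf4 and Ddit3 gave -0.04. These are descriptions, since cells of a condition share the condition and its amplification and differ in how many genes were on. Without the 5 cells rich in vascular markers the medians were 0.21 for the ER, 0.03 for the cytosol and 0.10 for mitochondria over 22 cells.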

How the data were processed

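Single MGCs were lysed, and their RNA was reverse transcribed from an oligo dT primer, poly(A)-tailed and amplified by 35 PCR cycles. The deposited values are signal intensities from Affymetrix Mouse Genome 430 2.0 arrays, computed by the authors with MAS 5.0 on a linear scale and scaled to a 2% trimmed mean of 500, which was checked on each array. Amplification from the 3′ end and a single array per cell leave dropouts that cannot be told from low expression. Of 45101 probe sets, 34958 with 1 gene symbol in the array annotation were used, 196 of them for members; 932 with several symbols and 9211 with none were not used. Where a gene had several probe sets the highest in that cell was taken. Hsp90ab1 and Dnajc19 were not analysed here. All 81 members matched RefSeq by Entrez number.

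Members and lists were chosen with earlier results of these data known. Values, floors and limits are given in the report. Genes are named if they are Hspd1, Hspa5 or Calr, which the paper names, core members of each compartment, among the 10 largest higher or lower differences of a comparison, on in all cells, or on in 1 cell or condition only. Alternatives were quantile normalization, a common 90th percentile, a single probe set for each gene, group means, floors of 500 and 2000, limits of 500, 1000 and 10000 for a gene that is on, and leaving out cells. Co-variation without the cells rich in vascular markers, and the comparisons with WT cells MG15 and MG3 alone, were added after the data were seen. The computation of differences was checked on simulated data with known changes. Computation used SciPy 1.17.1, NumPy 2.4.6, pandas 2.3.3 and matplotlib 3.10.9 under Python 3.11.15.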

Additional observations from a re-analysis of the deposited data

Results flagged for a closer look

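In each condition of 4 or 5 cells, 1 group was formed for each core member and 1 for the number of members on, 135 groups in all. Of these, 23 held a cell whose gap to its nearest neighbour was a large part of the range of the group. Dixon's criterion was used on log2 signals floored at 1000, or on the number of members on, with a critical value of 0.829 for 4 and 0.71 for 5 cells. Chance flags about 1 in 20 such groups, and groups whose other cells all lie under the floor are flagged readily. No member moved in opposite directions in all cells of a pair of comparisons.

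In Rhod-ko at 8 weeks cell 1 had the lowest Hspa8, at 39006.5, where the others read 125567.5 to 192673.2. The same cell had the highest Ddit3, at 16362.5, and Dnajb9, at 1457.0. Cell 2 had the highest Canx, at 4772.1, and Hsp90b1, at 1676.0, and cell 3 the highest Dnajb1, at 4064.3. In Rhod-ko at 25 weeks cell A3 had the highest Hsph1, at 9680.4, and cell A1 the highest Pdia4, at 1670.3.

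In rd1 at 5 weeks all 3 cases lay in cell A1, with the lowest Hspa8, at 26041.1, and the highest Dnajb1, at 3774.7, and Xbp1, at 3135.6. In rd1 at P13 both lay in cell B1, with the lowest Hsp90aa1, at 2326.4, where the others read 12210.8 to 21050.2, and the highest Pdia4, at 1063.6.

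In WT every case was a cell above the others. Cell MG3 stood out for Hspa4, at 10351.9, and for the ER members Hsp90b1, at 4607.0, Pdia6, at 2221.3, and Dnajb9, at 16340.4. Cell MG16 stood out for Hspa9, at 1528.5, Hspd1, at 4151.1, Pdia4, at 11791.0, and Xbp1, at 1208.0. Cell MG15 stood out for Pdia3, at 5630.5, and cell MG22 for Dnajc3, at 22220.6.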

How the results depend on the processing

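No paired analysis was possible because the results come from no test and cells of different conditions share no number that pairs them. With 1 cell left out at a time, for Rhod-ko at 8 weeks 6 to 11 members were higher, 6 to 8 lower and 2 to 4 without overlap, for Rhod-ko at 25 weeks 11 to 15 members were higher, 3 to 7 lower and 1 to 4 without overlap, for rd1 at 5 weeks 6 to 12 members were higher, 3 to 7 lower and 0 to 2 without overlap and for rd1 at P13 3 to 9 members were higher, 6 to 9 lower and 4 to 7 without overlap. The count of higher members in Rhod-ko at 8 weeks was 13 after quantile normalization, 15 with a floor of 500 and 5 with a floor of 2000, and 1 member was without overlap after quantile normalization. In Rhod-ko at 25 weeks 8 were higher after quantile normalization, after scaling to the same 90th percentile and with group means, and 5 with a floor of 2000. There 2 were lower with 1 probe set per gene and 9 after scaling to the 90th percentile, which left 0 without overlap. In rd1 at 5 weeks 4 were higher with a floor of 2000 or against congenic FVB. There 9 were lower after scaling to the 90th percentile, 7 with a floor of 500 or group means and 12 against congenic FVB, and 1 was without overlap with 1 probe set per gene, a floor of 500 or group means and 6 against congenic FVB. In rd1 at P13 4 were higher after scaling to the 90th percentile, 0 with a floor of 2000 and 15 for cells B4, A4 and B3 against adult WT, and 2, 8 and 1 were without overlap with a floor of 2000, with cells A1 and B1 alone and in that comparison with WT. The median number of members on per cell was 34 at a limit of 500 and 6 at 10000. Some named differences turned round. With 1 cell left out Hsph1 and Hspe1 in Rhod-ko at 8 weeks ran from -0.20 to 1.88 and -0.19 to 2.43, and Dnajc3 at P13 from -1.75 to 0.06. Hsph1 in Rhod-ko at 8 weeks was -0.18 with group means and -0.20 without WT cell MG1, MG22 or MG15, Hspe1 there -0.19 without cell 2 or 8, and Dnaja2 at 25 weeks 0.40 with 1 probe set per gene. Against congenic FVB, rd1 at 5 weeks gave -0.25 for Hsp90b1, -1.10 for Dnajc8, -0.14 for Pdia6, -2.65 for Calr and -0.21 for Hspa4. At P13 Hspa12b was 0.19 with cells A1 and B1 alone, Dnajc3 0.06 without congenic cell A4 and 1.66 for B4, A4 and B3 against WT, and Hspa4l -0.79 in the last. With WT cells MG15 and MG3 alone, 12 were lower and 4 without overlap in Rhod-ko at 8 weeks, 2 without overlap at 25 weeks, and 6 higher, 7 lower and 2 without overlap in rd1 at 5 weeks. There Hsph1 was -0.20 and Calr -0.78 at 8 weeks, Dnajb2 -0.09, Calr -0.71, Hspa4 -0.25, Dnajc12 -0.06, Dnajb9 -0.78 and Dnaja2 1.20 at 25 weeks, and Dnajb9 -0.32, Dnajc8 -0.12, Calr -0.83, Hspa4 -0.58 and Dnaja1 0.33 in rd1 at 5 weeks. A floor moves counts by its construction; the cause of the other shifts was not tested. The 3 to 5 cells of a condition, and signals near background, limit all of these counts.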
